A study of Mus musculus with 6 samples.

Results

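The vitamin D receptor Vdr, its 3 retinoid X receptor partners (Rxra, Rxrb and Rxrg) and the vitamin D hydroxylases Cyp27a1, Cyp2r1, Cyp27b1 and Cyp24a1 were followed in mouse gastrocnemius, the large calf muscle, after tamoxifen or vehicle. The 8 genes were taken by name, and all had a row among the 43346 genes of the RNA sequencing table. The knockout group comprised 3 libraries of tamoxifen-treated mice, and the vehicle group 3 libraries of mice given the carrier alone (10% ethanol in corn oil). All were males aged 6 months of the genotype Vdrfl/fl.actin iCre, so the controls carried the same floxed Vdr alleles and the same Cre transgene, Tg(ACTA1-cre/Esr1*)2Kesr. Tamoxifen, which switches this Cre on, was dosed at 100 mg/kg for 5 days, and glucose tolerance and strength were tested 10 days after dosing, before the muscle was taken. The shared diet held 3.4 IU/g of vitamin D3 and 0.81% calcium. The Cre is driven by the skeletal actin promoter ACTA1, so cells of the muscle other than fibres would keep an intact Vdr. Tamoxifen, Cre activity and loss of the floxed exon cannot be told apart here, because tamoxifen-treated mice without Cre were not analysed here.

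The vitamin D receptor is a nuclear receptor that binds hormonal vitamin D, pairs with a retinoid X receptor and acts on genes that carry a matching response element. The hormone is made by successive hydroxylations, classically in liver (Cyp2r1, with Cyp27a1 as a broader sterol hydroxylase) and kidney (Cyp27b1), and is broken down by Cyp24a1, whose gene is itself a classical target of the receptor. Retinoid X receptors also pair with thyroid hormone, retinoic acid, PPAR and liver X receptors, so they serve many pathways besides vitamin D. Skeletal muscle is known for low amounts of the vitamin D receptor, and Rxrg is the retinoid X receptor with the most restricted expression, muscle included.

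The sequence removed in the knockout design is shown because it is the only part of Vdr that the deletion is built to take out. In mm10 the coding part of exon 3 of the reference transcript lies on the minus strand at chr15:97884794-97884939, and it is printed from the GENCODE transcript. Capitals mark the start codon and the 4 in-frame TGT or TGC codons, the cysteine codons of the first zinc finger of the DNA-binding domain.
Vdr exon 3, coding part: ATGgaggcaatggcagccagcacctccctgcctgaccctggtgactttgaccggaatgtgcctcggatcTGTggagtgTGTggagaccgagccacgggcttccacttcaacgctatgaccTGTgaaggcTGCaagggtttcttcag
These 146 bases are 11.5% of the 1266 coding bases of that transcript. The whole exon, 148 bases, is 2.62% of the 5650 bases listed as the length of Vdr, so nearly all of the counted length of Vdr lies outside the deleted exon.

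The libraries held 30486874 to 39909535 counted reads. Summed CPM (read counts scaled by library size after TMM adjustment) of 6 skeletal muscle markers ran from 68730 to 162600 in knockout and from 138700 to 155000 in vehicle libraries. All 6 markers were present in each library. Knockout replicate 2 stood apart: it had the lowest muscle sum, and its top 10 genes took 15.1% of its reads, while elsewhere they took 20.8% to 25.2%. Its summed CPM of 10 slow-twitch fibre markers was 32830, against 6201 for knockout replicate 1, 10350 for knockout replicate 3, and 10160, 1483 and 1233 for vehicle replicates 1, 2 and 3. All 10 slow-twitch, 8 of 8 macrophage, 5 of 5 adipocyte and 5 of 5 fibroblast markers had a higher estimate in knockout, as had 4 of 5 endothelial and 3 of 4 satellite cell markers. A lower estimate was found for 4 of 4 smooth muscle, 4 of 4 Schwann cell and 5 of 6 skeletal muscle markers, and 6 lymphocyte markers had too few reads for the test. The groups overlapped for all tested markers but 3 of the 4 smooth muscle markers, lower in knockout, and 1 satellite cell marker, higher. Over all genes tested 6.48% lay apart and lower, and 5.83% apart and higher. At an unadjusted p below 0.05 in edgeR's quasi-likelihood test, 7 macrophage, 5 adipocyte, 2 slow-twitch and 1 fibroblast marker were higher in knockout. At that level 3 smooth muscle markers were lower, and the skeletal muscle, endothelial, satellite cell and Schwann cell lists had 0. Over all genes tested 4.02% were higher and 3.42% lower at that level. Of the tested markers 0 had an adjusted p below 0.05. The fibroblast sum of knockout replicate 1, 413 CPM, was below the vehicle range of 453 to 613 CPM. The part of these cell types in the gene differences was not tested. In whole muscle, fewer cells of a type and less RNA per cell cannot be told apart.

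Enough reads for a test were found for 5 of the 8 genes; all 5 had a lower estimate in knockout, and 0 passed. Of the 15583 genes tested with edgeR's quasi-likelihood test, 0% had an adjusted p below 0.05, and limma-voom on as many genes also called 0. DESeq2 called 109, but it was fitted on 23845 genes without a prior low-count filter. Its own default filter on mean count was left on for the adjustment of p. Without any low-count filter edgeR called 29 of those 23845 genes. At an unadjusted edgeR p below 0.05 the share of the 15583 was 7.44% (1159 genes), with 3.42% lower and 4.02% higher in knockout. Rxrg was the only one of the 5 at that level. Estimates below 0 were found for 47.1% of all genes tested, and the log2 fold changes had a median of -0.37 over the 5 and 0.0211 over all genes. Cyp2r1, Cyp27b1 and Cyp24a1 had too few reads for the test.

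Vdr (ENSMUSG00000022479, chr15:97854425-97910630 in mm10), the targeted receptor, was the most weakly expressed of the 5 tested genes. Vdr had 0.244, 0.157 and 0.201 FPKM (counts scaled by gene length and library total) in knockout replicates 1, 2 and 3, against 0.243, 0.228 and 0.270 FPKM in vehicle replicates 1, 2 and 3. Knockout replicate 1 lay within the vehicle range, and the groups overlapped. Counting error alone was wide: knockout replicate 2 held 27 Vdr reads, with an exact Poisson 95% interval of 0.584 to 1.29 CPM by library total, and vehicle replicate 1 held 46, with 1.00 to 1.83 CPM. For Vdr the fitted log2 fold change was -0.37 (SE 0.37, edgeR adjusted p = 0.848), with a 95% interval of -1.19 to 0.46 that spans lower and higher values. It was -0.64 without knockout replicate 1 and -0.16 without knockout replicate 2. Whether the remaining reads carry exon 3, and how many come from cells other than fibres, was not tested.

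**Figure D1:**
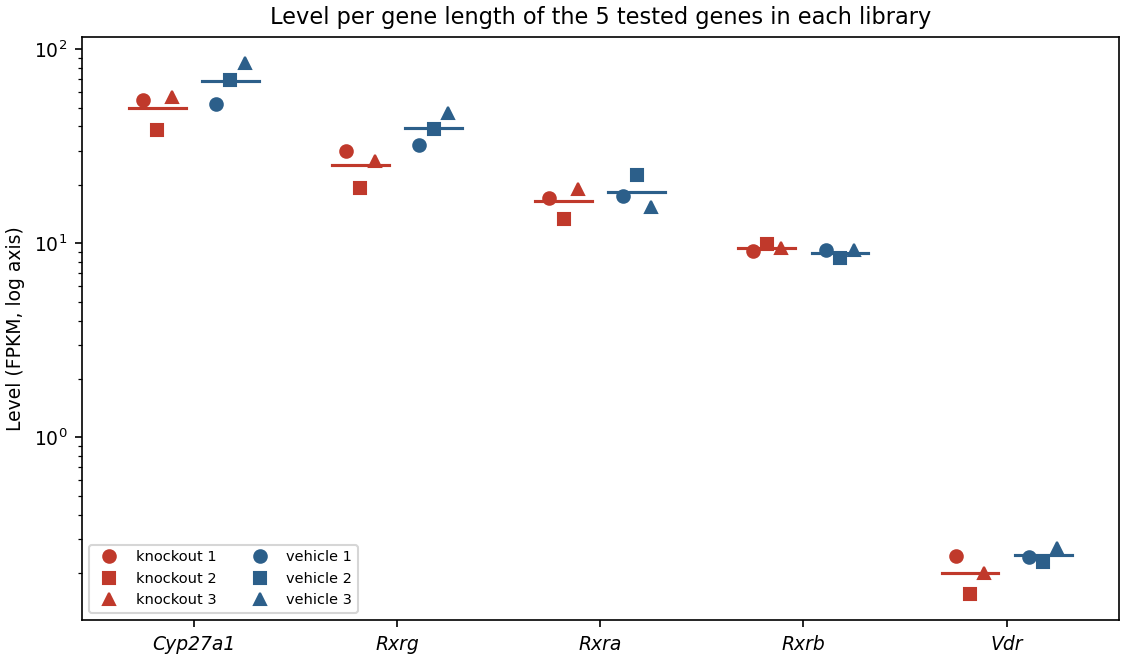
Level of the 5 tested genes in each library, in FPKM on a log axis; each point is 1 library (knockout left, vehicle right for each gene) and each bar is the mean of 3 libraries. Cyp27a1 and Rxrg lie lower in knockout on average, Rxrb is the tightest, and Vdr sits far below the others at 0.157 to 0.270 FPKM.

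The retinoid X receptors were present at far higher levels per length than their vitamin D partner. Over the 6 libraries Rxrg averaged 32.2 ± 9.57 FPKM, Rxra 17.5 ± 3.11, Rxrb 9.21 ± 0.493 and Vdr 0.224 ± 0.0399 (SD, n = 6). The mean FPKM of the 3 retinoid X receptors summed was 263 times the mean FPKM of Vdr. Rxrg exceeded Rxra, and Rxra exceeded Rxrb, in each of the 6 libraries, so the order of the levels was the same throughout. Among the 12 tested partner receptors of the retinoid X receptors, all 12 had a higher mean FPKM than Vdr, the lowest being the retinoic acid receptor Rarg at 1.23. The partner receptors Nr1h4, Nr1i3 and Nr1i2 had too few reads for the test. They lay below Vdr, at means of 0.0517, 0.00997 and 0 FPKM. Only the orphan receptor Nr4a1, at 293 FPKM, lay above Rxrg.

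Rxrg (ENSMUSG00000015843, chr1:167598384-167639623), the retinoid X receptor with the highest level per length in this muscle, was lower in knockout in the estimate, but not past the adjusted threshold. Rxrg had 75.7, 39.1 and 57.4 CPM in knockout replicates 1, 2 and 3, against 76.1, 91.3 and 112 CPM in vehicle replicates 1, 2 and 3. The groups did not overlap, as for 6.48% of the genes tested in this direction, yet knockout replicate 1 and vehicle replicate 1 nearly met. Rxrg averaged 57.4 ± 18.3 CPM in knockout and 93.0 ± 17.8 CPM in vehicle muscle (SD, n = 3 each), and its log2 fold change was -0.70 (SE 0.25, 95% interval -1.26 to -0.13). The unadjusted edgeR p was 0.0202 and the adjusted p 0.640, rank 492 of the genes tested. Without vehicle replicate 3 the log2 fold change was -0.55 and the unadjusted edgeR p 0.0804.

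Rxra (ENSMUSG00000015846, chr2:27676440-27762957) and Rxrb (ENSMUSG00000039656, chr17:34031812-34038393), the broadly expressed retinoid X receptors, did not separate the groups. Rxra had 103, 64.5 and 97.5 CPM in knockout replicates 1, 2 and 3, against 99.0, 125 and 87.9 CPM in vehicle replicates 1, 2 and 3. Only knockout replicate 2 lay below the vehicle range. Rxra had a log2 fold change of -0.24 (SE 0.22, 95% interval -0.73 to 0.26; edgeR adjusted p = 0.829), and without knockout replicate 2 it was -0.0570. Rxrb had 37.0, 32.2 and 32.7 CPM in knockout replicates 1, 2 and 3, against 35.6, 31.5 and 35.7 CPM in vehicle replicates 1, 2 and 3. Its levels were interleaved and its spread was the smallest of the 5, with a coefficient of variation of 6.57% over the 6 libraries against 33.7% for Rxrg. Rxrb had a log2 fold change of -0.0118 (SE 0.15, 95% interval -0.35 to 0.32; edgeR adjusted p = 0.992), and its sign turned to 0.0794 when libraries were scaled by their totals. On that scale Rxrb averaged 9.47 ± 0.377 FPKM in knockout and 8.96 ± 0.522 FPKM in vehicle muscle (SD, n = 3 each).

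The make-up of the retinoid X receptor level is a ratio within each library and so does not depend on how libraries are scaled. Rxrg made up 53.4%, 45.3% and 48.3% of the summed Rxra, Rxrb and Rxrg FPKM in knockout replicates 1, 2 and 3, against 54.4%, 55.8% and 65.4% in vehicle replicates 1, 2 and 3. Every knockout share lay below every vehicle share, with means of 49.0% ± 4.06 in knockout and 58.5% ± 5.96 in vehicle muscle (SD, n = 3 each). The difference was -9.52 percentage points, with an exact two-sided permutation p of 0.1, the smallest that 3 against 3 libraries can give. Rxrb made up 18.9% ± 3.81 in knockout and 13.6% ± 1.99 in vehicle libraries, a difference of 5.26 points with the same exact permutation p of 0.1. The shares are parts of a fixed whole, so this is not a separate result from the Rxrg share. The log2 fold change of Rxrb itself was -0.0118. Rxra made up 32.2% ± 2.14 in knockout and 27.9% ± 5.53 in vehicle libraries, with an exact permutation p of 0.4. The log2 ratio of Rxrg to Rxra FPKM was 0.81, 0.53 and 0.48 in knockout replicates 1, 2 and 3, against 0.87, 0.79 and 1.59 in vehicle replicates 1, 2 and 3. These groups overlapped (exact permutation p = 0.2). Over the 5 such within-library tests, which share genes and so are not independent, the Benjamini-Hochberg adjusted exact p was 0.25 for the Rxrg share.

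**Figure D2:**
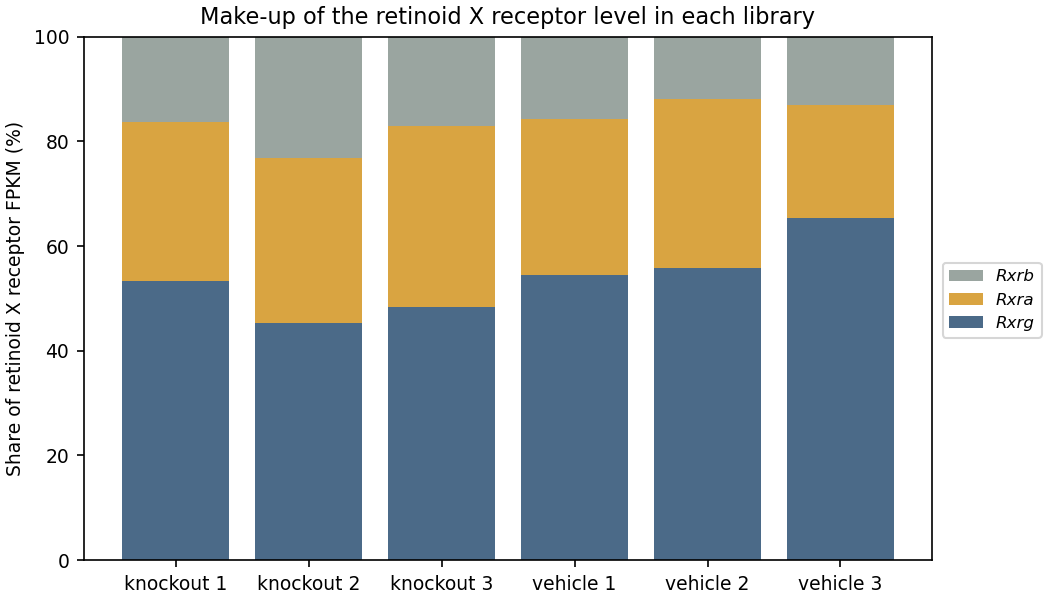
Share of each retinoid X receptor in the summed FPKM of Rxra, Rxrb and Rxrg, in percent, with 1 stacked bar per library and knockout on the left. Rxrg is the largest part in each library, at 45.3% to 53.4% in knockout and 54.4% to 65.4% in vehicle.

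Cyp27a1 (ENSMUSG00000026170, chr1:74713574-74737892), the mitochondrial sterol hydroxylase that also hydroxylates vitamin D, had the highest level of the 8 genes per length. Cyp27a1 had 130, 73.3 and 116 CPM in knockout replicates 1, 2 and 3, against 117, 153 and 191 CPM in vehicle replicates 1, 2 and 3. Knockout replicate 1 lay above vehicle replicate 1, so the groups overlapped, and knockout replicate 2 was far below the rest. Its mean was 49.8 ± 10.1 FPKM in knockout and 68.5 ± 16.4 FPKM in vehicle muscle (SD, n = 3 each). Cyp27a1 had a log2 fold change of -0.53 (SE 0.26, 95% interval -1.11 to 0.0409; edgeR adjusted p = 0.687). Leaving out knockout replicate 2 gave -0.33, and leaving out vehicle replicate 3 gave -0.35.

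Rxrg and Cyp27a1 varied together from library to library more closely than any other pair among the 5 tested genes. The root-mean-square difference between their centred log2 CPM profiles over the 6 libraries was 0.124, against 0.214 to 0.455 for the remaining pairs. Genes outside the 8 came closer, at 0.0595 to 0.0746 for the 3 nearest to Rxrg and 0.0352 to 0.0481 for the 3 nearest to Cyp27a1. Rxrg and Cyp27a1 were both lowest in knockout replicate 2 and highest in vehicle replicate 3. Sorted by slow-twitch fibre markers from vehicle replicate 3 up to knockout replicate 2, Cyp27a1 was lower at every step, at 191, 153, 130, 117, 116 and 73.3 CPM. Rxrg followed nearly the same order, at 112, 91.3, 75.7, 76.1, 57.4 and 39.1 CPM. Knockout replicate 3 and vehicle replicate 1 had the closest slow-twitch sums, 10350 and 10160 CPM, and at that level Cyp27a1 was 116 CPM in the knockout and 117 CPM in the vehicle library, while Rxrg was 57.4 and 76.1 CPM. This order was not particular to slow-twitch markers. The macrophage marker sum was also lowest in vehicle replicate 3 and highest in knockout replicate 2. From its lowest to its highest library, Cyp27a1 was at 191, 130, 153, 117, 116 and 73.3 CPM. Rxrg was at 112, 75.7, 91.3, 76.1, 57.4 and 39.1 CPM in that order. Both sums moved with both genes, and the part of either in the differences of Rxrg and Cyp27a1 was not tested.

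**Figure D3:**
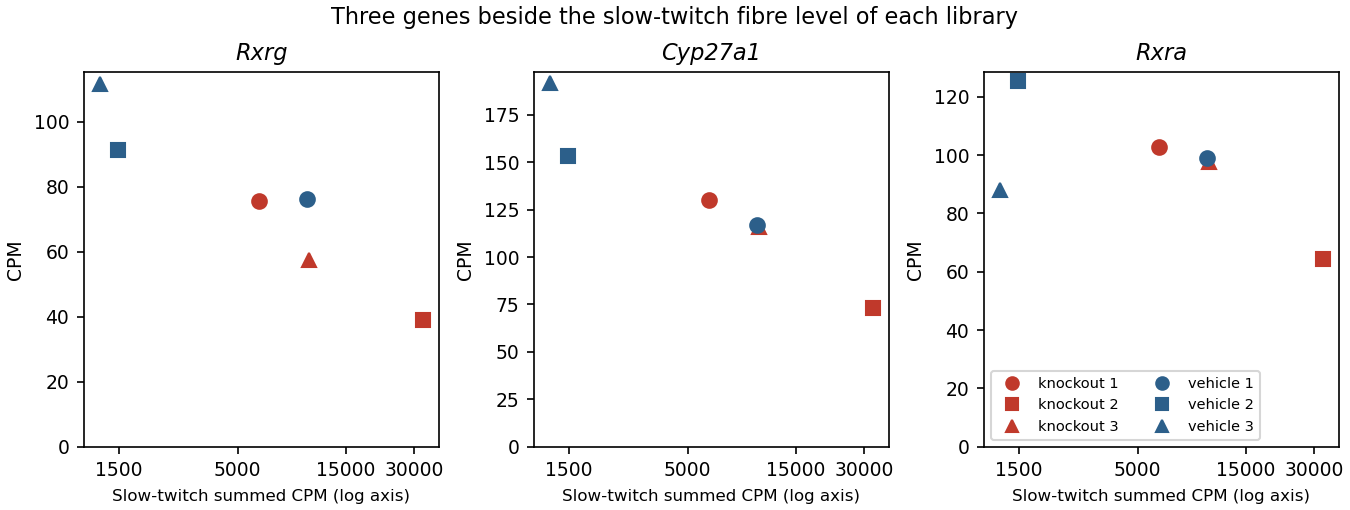
CPM of Rxrg, Cyp27a1 and Rxra (vertical axes, from 0) against the summed CPM of 10 slow-twitch fibre markers (horizontal, log axis), with 1 point per library. Rxrg and Cyp27a1 run from 112 and 191 CPM in vehicle replicate 3, the lowest slow-twitch sum, to 39.1 and 73.3 CPM in knockout replicate 2, the highest; Rxra does not order the vehicle libraries that way.

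Promoter windows of Rxrg and Cyp27a1 are shown because, among the 5 tested genes, these had the most similar profiles. Each runs from 250 bases before to 50 bases after a RefSeq transcript start on the plus strand of GRCm38.p6, and capitals mark the receptor half-sites AGGTCA and AGTTCA on either strand.
Rxrg, upstream start, chr1:167598112-167598411: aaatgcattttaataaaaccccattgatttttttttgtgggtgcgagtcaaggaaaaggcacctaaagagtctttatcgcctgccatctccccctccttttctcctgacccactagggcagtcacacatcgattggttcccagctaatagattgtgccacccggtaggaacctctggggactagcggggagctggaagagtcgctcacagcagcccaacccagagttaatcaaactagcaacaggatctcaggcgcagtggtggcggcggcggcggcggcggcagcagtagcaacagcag
Rxrg, downstream start, chr1:167618015-167618314: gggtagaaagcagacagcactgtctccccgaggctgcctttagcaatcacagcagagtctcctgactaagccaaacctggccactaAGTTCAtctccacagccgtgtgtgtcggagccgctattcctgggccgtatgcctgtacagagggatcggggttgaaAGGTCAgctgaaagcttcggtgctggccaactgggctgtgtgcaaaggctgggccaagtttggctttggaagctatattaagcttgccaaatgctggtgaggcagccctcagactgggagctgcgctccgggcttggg
Cyp27a1, chr1:74713285-74713584: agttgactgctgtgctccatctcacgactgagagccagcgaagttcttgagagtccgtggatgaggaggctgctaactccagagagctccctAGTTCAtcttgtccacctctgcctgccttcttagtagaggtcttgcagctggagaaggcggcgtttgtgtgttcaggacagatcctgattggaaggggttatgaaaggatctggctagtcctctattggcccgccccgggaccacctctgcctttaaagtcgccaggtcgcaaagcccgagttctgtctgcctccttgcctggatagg
A half-site stood in 4 of the 10 windows of the 7 genes with an entry, against 27.7% of all 32851 windows. The vitamin D response element pairs such hexamers as a direct repeat spaced by 3 bases. Taking AGGTCA or AGTTCA or GGGTCA or GGTTCA as either hexamer, on either strand, 0 of the 10 windows held such a repeat, against 0.0396% of all windows. A match of letters is a description of the window and not a binding site, and the search was chosen after the values were seen.

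The scarce hydroxylases were at the limit of detection. Cyp2r1 (ENSMUSG00000030670, chr7:114550166-114562972), the vitamin D hydroxylase of the liver endoplasmic reticulum, had 0, 0 and 0 reads in knockout libraries and 5, 5 and 6 reads in vehicle replicates 1, 2 and 3. All 16 reads thus lay in vehicle libraries. The floor of 3 reads stood at 0.0795, 0.0984 and 0.0853 CPM in knockout replicates 1, 2 and 3. The vehicle libraries held 0.149, 0.134 and 0.150 CPM by library total. Library by library the exact Poisson 95% intervals overlapped. Their upper limits were 0.0978, 0.121 and 0.105 CPM in knockout replicates 1, 2 and 3. The lower limits were 0.0484, 0.0436 and 0.0552 CPM in vehicle replicates 1, 2 and 3. Over the groups, Cyp2r1 was at least 4.98-fold lower in knockout, with the knockout group set at its floor of 3 reads and the vehicle reads taken as counted. With the counting error of both groups, the exact 95% interval of the ratio, knockout over vehicle, reached up to 0.278. This limit allows a smaller difference than the floor bound does. Intervals and floors cover counting error only. Too few reads kept Cyp2r1 out of the test, and without a low-count filter edgeR gave an unadjusted p of 0.0112 and an adjusted p of 0.591, while DESeq2 gave an adjusted p of 0.420.

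Among the 1220 genes with 12 to 20 reads in all, a range chosen after the values of Cyp2r1 were seen, 2.13% had 0 reads in every knockout library and 2.62% had 0 in every vehicle library. Cyp2r1 is classically a liver gene, so transcripts of liver are given beside it. The summed reads of 8 liver genes (Alb, Apoa1, Apoa2, Ttr, Serpina1a, Fgb, Ahsg and Gc, a list chosen after the values were seen) were 137, 231 and 157 in knockout replicates 1, 2 and 3, against 562, 292 and 368 in vehicle replicates 1, 2 and 3. By library total these were 3.63, 7.58 and 4.46 CPM in knockout and 16.8, 7.84 and 9.22 CPM in vehicle libraries. Gc, which encodes the vitamin D binding protein of plasma, had 0, 0 and 7 reads in knockout replicates 1, 2 and 3, against 20, 10 and 18 in vehicle replicates 1, 2 and 3. The liver sums of knockout replicate 2 and vehicle replicate 2 nearly met, and Gc was the only one of the 8 genes at 0 in any library. Whether the Cyp2r1 reads came from muscle or from liver RNA in these samples was not tested.

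Cyp27b1 (ENSMUSG00000006724, chr10:127048250-127053006), which makes hormonal vitamin D, had 3, 2 and 11 reads in knockout replicates 1, 2 and 3, against 3, 1 and 2 reads in vehicle replicates 1, 2 and 3. Knockout replicate 3 held 11 of the reads, and the other 5 libraries had 1 to 3 each. The ratio of summed rates, knockout over vehicle, was 2.85 (exact 95% interval 1.06 to 8.91 for counting error only), or 1.51 on the log2 scale, and this became 0.44 without knockout replicate 3. Macrophages are a known site of Cyp27b1 outside the kidney. Summed CPM of 8 macrophage markers was 45.8, 138 and 135 in knockout replicates 1, 2 and 3, against 36.4 to 65.1 in vehicle libraries, with 0 of the markers at 0 in any library. Their part in the Cyp27b1 reads was not tested.

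Cyp24a1 (ENSMUSG00000038567, chr2:170482708-170497145), the hydroxylase that inactivates vitamin D and the classical readout of receptor activity, had 0 reads in all 6 libraries. The floor of 3 reads stood at 0.0290 CPM over the knockout group and at 0.0271 CPM over the vehicle group. A difference in Cyp24a1 was not detectable at this depth. One gene, Pfdn4, overlaps the Cyp24a1 locus in the table, and the other 7 genes have no overlapping row.

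**Figure D4:**
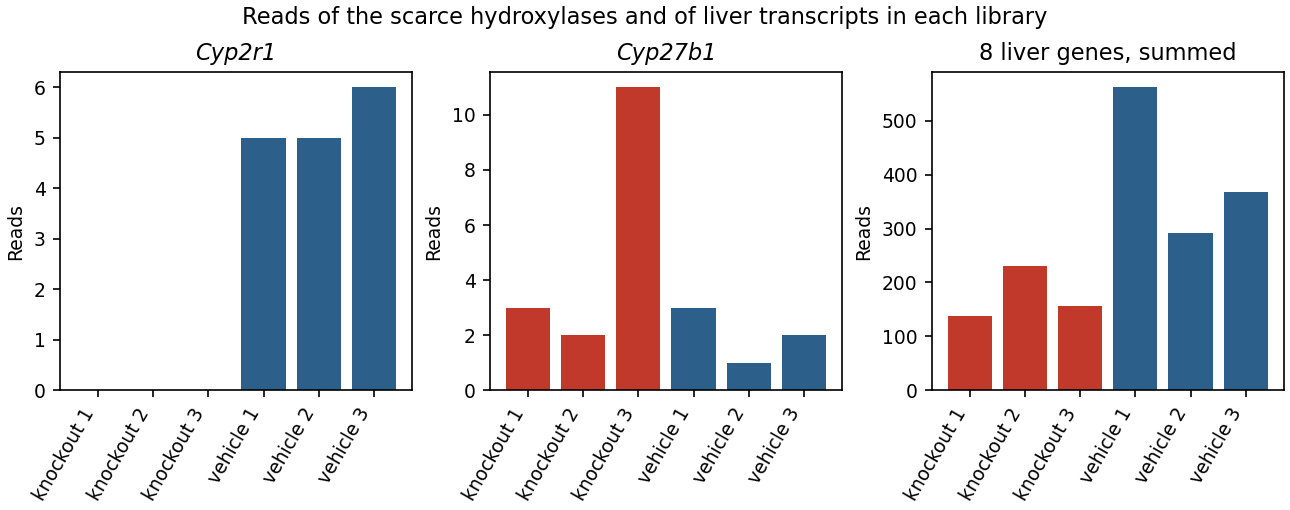
Reads of Cyp2r1 and Cyp27b1 and summed reads of 8 liver genes in each library (bars from 0; knockout in red on the left, vehicle in blue). Cyp2r1 has 0 reads in each knockout library and 5 to 6 in each vehicle library, Cyp27b1 stands out at 11 reads in knockout replicate 3, and the liver sum is 137 to 231 in knockout and 292 to 562 in vehicle libraries.

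Other genes of the pathway gave no call. Among 18 known targets of the vitamin D receptor, 3 had 0 reads in all libraries, namely the calcium channels Trpv5 and Trpv6 and the osteoclast cytokine Tnfsf11. Of the 9 targets tested with edgeR, 0 passed, 5 had a lower and 4 a higher estimate, with a median log2 fold change of -0.47. The cell cycle inhibitor Cdkn1a had 69.1, 94.9 and 92.1 CPM in knockout replicates 1, 2 and 3, against 89.1, 126 and 189 CPM in vehicle replicates 1, 2 and 3. The groups overlapped, and its log2 fold change was -0.66 (SE 0.27; edgeR adjusted p = 0.651). It was the only one of the 9 with an unadjusted edgeR p below 0.05, a level reached by 7.44% of all genes tested. Thbd, the thrombin receptor thrombomodulin, was at -0.60 (SE 0.29) and the Wnt co-receptor Lrp5 at 0.35 (SE 0.21).

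Genes that transport vitamin D or serve or follow its hydroxylases gave no call. Of 10 in this list 5 had enough reads and were tested, 0 passed, and 4 of the 5 had a higher estimate, with a median log2 fold change of 0.36. Fdx1, the ferredoxin that feeds electrons to mitochondrial hydroxylases such as Cyp27a1, had 23.4, 34.0 and 16.1 CPM in knockout replicates 1, 2 and 3, against 19.0, 14.5 and 20.7 CPM in vehicle replicates 1, 2 and 3. Only knockout replicates 1 and 2 lay above the vehicle range. Its log2 fold change was 0.44 (SE 0.27), that of Por, the reductase of microsomal hydroxylases, was 0.36 (SE 0.21), and that of Pdia3, a disulfide isomerase described as a membrane vitamin D binding protein, was 0.17 (SE 0.16). The endocytic receptor Lrp2, which takes up vitamin D binding protein in kidney, had 0 reads.

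All 11 cofactors of the receptor were expressed, and 0 passed. Their log2 fold changes had a median of 0.0727, with 6 higher and 5 lower estimates and 0 with an unadjusted p below 0.05. The smallest p values belonged to Snw1, Crebbp and Ncoa3. The splicing-linked coactivator Snw1 was at -0.15 (SE 0.15), the acetyltransferase Crebbp at -0.19 (SE 0.19) and the coactivator Ncoa3 at 0.20 (SE 0.23). Snw1 lay lower in every knockout library, as for 6.48% of all genes tested.

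Of the 15 other receptors that pair with a retinoid X receptor, 12 were tested and 0 passed, with 4 higher and 8 lower estimates and a median log2 fold change of -0.0960. At an unadjusted edgeR p below 0.05 there were 2 lower, Rarb and Nr4a2, and 2 higher, Rarg and Ppara. Over all 15583 genes tested, 3.42% were lower and 4.02% higher at that level. Nr4a2 is named after its value was seen. Rarb, a retinoic acid receptor, had 5.58, 5.73 and 6.04 CPM in knockout replicates 1, 2 and 3, against 9.32, 8.17 and 9.18 CPM in vehicle replicates 1, 2 and 3. Its groups were tight and did not overlap, as for 6.48% of all genes tested in this direction. The log2 fold change of Rarb was -0.62 (SE 0.19; edgeR adjusted p = 0.611). Rarg, another receptor of the same family, had 4.59, 6.71 and 6.76 CPM in knockout replicates 1, 2 and 3, against 3.93, 3.86 and 3.99 CPM in vehicle replicates 1, 2 and 3. It lay higher in every knockout library, at 0.62 (SE 0.24; edgeR adjusted p = 0.645), as for 5.83% of all genes tested. Ppara, a receptor for fatty acids, had 25.6, 37.5 and 37.2 CPM in knockout replicates 1, 2 and 3, against 25.9, 15.3 and 8.69 CPM in vehicle replicates 1, 2 and 3. Knockout replicate 1 lay just below vehicle replicate 1, so the groups overlapped, and the log2 fold change was 1.01 (SE 0.36; edgeR adjusted p = 0.640). Nr4a2, an activity-induced orphan receptor, was at -1.06 (SE 0.41; edgeR adjusted p = 0.645). Nr4a2 and Nr4a1 also lay lower in every knockout library. Nr4a1 averaged 601 ± 127 CPM in knockout and 860 ± 99.9 CPM in vehicle muscle (SD, n = 3 each). Of the 12 tested, 3 thus had groups apart and lower in knockout, and 1, Rarg, higher.

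**Figure D5:**
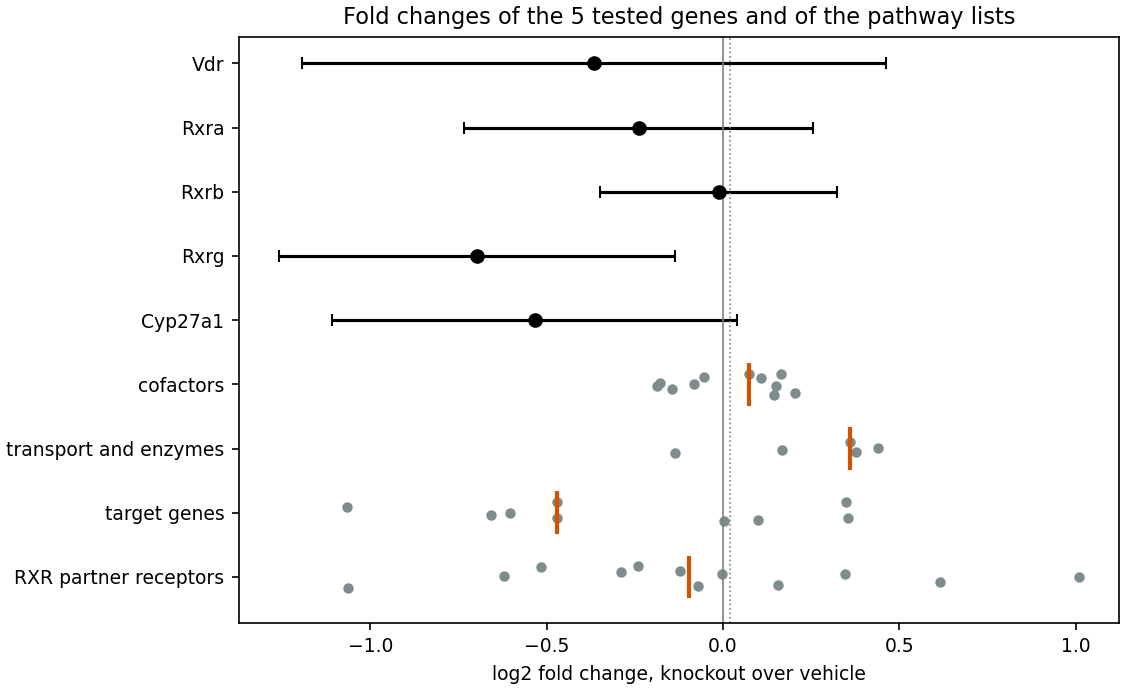
Log2 fold change, knockout over vehicle, of the 5 tested genes (black points with 95% intervals) and of the tested members of 4 pathway lists (grey points, 1 per gene; orange bars, medians of 0.0727, 0.36, -0.47 and -0.0960 from top to bottom). The solid line is 0 and the dotted line the median of all genes tested, 0.0211; of the 5 intervals only that of Rxrg does not cross 0.

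The genes with the most similar profile over the 6 libraries were sought among 11394 expressed, named genes by the root-mean-square difference in centred log2 CPM. For Vdr they were the magnesium transporter gene Slc41a3 (0.0490), Aimp2 (0.0520) and Tmem175 (0.0656). For Rxra they were Zfp667 (0.0335), Pnpla6 (0.0372) and the spliceosome core gene Prpf8 (0.0458), and for Rxrb the propionyl-CoA carboxylase subunit Pccb (0.0243), Apeh (0.0251) and Serbp1 (0.0307). For Rxrg they were the vesicle coat GTPase Sar1b (0.0595), Lingo3 (0.0650) and Anapc5 (0.0746). For Cyp27a1 they were Eepd1 (0.0352), Fam69a (0.0413) and Tspyl2 (0.0481). The distances describe these 6 libraries only.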

How the data were processed

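Gastrocnemius mRNA was sequenced in 6 libraries (Illumina TruSeq Stranded kit, per the labels' protocols). Deposited values were gene-level read counts and FPKM, the counts being made per the submitters' processing notes with STAR 2.6.1c and featureCounts of Subread 1.5.1 on mm10. For the annotation release and strand setting, the sources used here give nothing. The deposited FPKM equalled the count per listed length plus 1 base and column total, so they carry no other normalization.

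Counts of 15583 genes kept by filterByExpr (minimum count 10, minimum total 15) were scaled with TMM and fitted with edgeR 4.0.16 in R 4.3.3 (robust quasi-likelihood test, two-sided), with Benjamini-Hochberg adjustment across the 15583, threshold 0.05. Fold changes are knockout over vehicle. Fewer reads than the filter asks left Cyp2r1, Cyp27b1 and Cyp24a1 with counts only. A count of 3 was taken as the floor. Alternatives used limma 3.58.1 and DESeq2 1.42.0, and the fits were tested on simulated data. The liver list was chosen after the values were seen. Named from each pathway list were the 3 genes of smallest p, since 0 passed, and for each tested gene the 3 closest profiles (mean CPM at least 1). The marker Adgre1 was found under its older symbol through its gene ID. The genes and lists were chosen with earlier results of these data known. Replicates were numbered as names only and not paired. The labels do not state that each library is a separate animal, so p-values measure the spread between these libraries, which may be technical. No 2 libraries agreed within sampling noise.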

Additional observations from a re-analysis of the deposited data

How the results depend on the processing

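No gene of the 5 tested passed the adjusted threshold under any of the 16 alternatives. Vdr, Rxra, Rxrg and Cyp27a1 kept a lower estimate in knockout in all 16. Vdr ran from -0.41 to -0.0554 over 10 settings, the last with limma on log2(FPKM + 1), a pseudocount above its level. Rxrg ranged from -0.73 to -0.62 over 10 settings (adjusted p 0.330 to 0.738) and from -0.95 to -0.48 with a library left out (adjusted p 0.234 to 0.991). Rxrb, near 0, reversed to 0.0794 with library totals, 0.0795 and 0.0724 with limma on log2(FPKM + 0.1) and log2(FPKM + 1), and ran from -0.0826 to 0.0249 with a library left out. Scaling by library totals put the median of all genes at 0.118, against 0.0211 with TMM. The count of genes past the threshold was 0, but 4 with DESeq2 size factors in edgeR. It was 29 in edgeR without a low-count filter and 109 with DESeq2, both fitted on 23845 genes. DESeq2 also kept its own default filter on mean count for the adjustment. With a library left out the count was 0 to 24, with 24 without knockout replicate 1 and 6 without knockout replicate 2. The cause was not tested. The log2 bound for Cyp2r1, -2.32, ran from -2.37 to -1.66 with a library left out, since fewer knockout reads raise the floor. The Rxrg share difference was -8.62 points on raw reads and -11.7 to -6.10 with a library left out. Replicate numbers only name libraries. No paired analysis was possible because the labels pair no mice across groups. Depth limits Vdr, with 27 to 61 reads per library, and the scarce hydroxylases most.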
